A study of Mus musculus with 12 samples.

Results

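The 9 imprinted growth regulators H19, Igf2, Dlk1, Peg3, Plagl1, Mest, Cdkn1c, Grb10 and Ndn were followed through the first postnatal weeks in GFP-sorted cells of the mouse cerebellum. They were chosen by gene symbol, as 9 of the 24421 entries of the deposited table, and all 9 were among the 15464 genes tested. The mice carried the reporter Aldh1l1-GFP, in which GFP marks cells that use the promoter of the astrocyte enzyme gene Aldh1l1, and were kept on a C57/BL6J background. Cerebella were dissociated and GFP-positive cells were sorted at P1, P7, P14 and P28 (postnatal days 1, 7, 14 and 28), with 3 libraries at each age, no other genotype and no treatment. Both sexes were used, and the labels do not say which libraries came from separate animals, so p-values below measure only the spread between these libraries.

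Imprinted genes are expressed mainly or only from 1 parental copy, some from that of the mother and some from that of the father, and the choice is set by DNA methylation at a control region laid down in the germ line. Many of them act on growth before and around birth: genes expressed from the paternal copy, such as Igf2, often promote it, and genes expressed from the maternal copy, such as Cdkn1c and H19, often restrain it. The 9 genes belong to a group that is known to be high in fetal organs and to be turned down as growth slows after birth. In the adult brain, Igf2 is known from the choroid plexus, the meninges and cells along vessels. The counts here do not separate the 2 parental copies, so whether Igf2 or any other gene was imprinted in these cells was not measured.

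The genes lie at 7 places in the genome (GRCm38, GENCODE M21 gene models). H19 (ENSMUSG00000000031.16), a long noncoding RNA gene on the minus strand at chr7:142575529-142578143, lies close to Igf2 (ENSMUSG00000048583.16, chr7:142650766-142666816, minus strand), which encodes insulin-like growth factor 2. Cdkn1c (ENSMUSG00000037664.13, chr7:143458339-143461050, minus strand), which encodes the cyclin-dependent kinase inhibitor p57Kip2, lies farther along the same stretch of the chromosome. Peg3 (ENSMUSG00000002265.16, chr7:6703892-6730431, minus strand), a zinc finger protein gene, and Ndn (ENSMUSG00000033585.5, chr7:62346569-62350262, plus strand), which encodes necdin, are elsewhere on chromosome 7. Dlk1 (ENSMUSG00000040856.17, chr12:109452823-109463336, plus strand) encodes a Notch-related transmembrane protein that is also shed. Plagl1 (ENSMUSG00000019817.18, chr10:13060504-13131694, plus strand) encodes the zinc finger transcription factor ZAC1. Mest (ENSMUSG00000051855.15, chr6:30723547-30748465, plus strand) encodes a hydrolase-like protein of the endoplasmic reticulum, and Grb10 (ENSMUSG00000020176.17, chr11:11930508-12038683, minus strand) encodes an adaptor that binds the insulin and IGF1 receptors and dampens their signal.

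MicroRNA genes lie inside 3 of these genes. Their mature arms are shown because the 3 include H19, with the largest fitted fall from P1 to P28, and Igf2, which stood highest. Mir675 lies in an exon of H19, Mir483 in an intron of Igf2 and Mir335 in an intron of Mest. The arms are given 5′ to 3′ from RefSeq on GRCm38.p6, with the seed (bases 2 to 8) in capitals. No 2 of the 6 seeds are the same.
miR-675-5p (chr7:142577112-142577133, minus strand): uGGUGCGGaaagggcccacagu
miR-675-3p (chr7:142577078-142577099, minus strand): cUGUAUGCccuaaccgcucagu
miR-483-5p (chr7:142654968-142654989, minus strand): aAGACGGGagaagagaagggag
miR-483-3p (chr7:142654932-142654952, minus strand): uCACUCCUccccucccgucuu
miR-335-5p (chr6:30741314-30741336, plus strand): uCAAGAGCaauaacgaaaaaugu
miR-335-3p (chr6:30741354-30741375, plus strand): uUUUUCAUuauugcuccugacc
The labels name the molecule as polyA RNA, the study's protocol starts from total RNA, and mature microRNAs were not sequenced as a fraction of their own. The rows of the table for Mir675 and Mir483 were at 0 in every library, and that for Mir335 reached at most 5.24 normalized counts.

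The libraries held 6399499 to 14733985 reads on genes, and values are given as normalized counts, the deposited unit, in which each library's reads were divided by 1 size factor. All 11 astrocyte markers, Aldh1l1 among them, were detected at each age, and their summed level was 61646 to 78487 normalized counts at P1 and 29502 to 54032 a week later. It was 154676 to 190598 in the P14 libraries and 351813 to 410403 in those of P28. Markers of other cells were present too. Those of oligodendrocytes, 8 in all, summed to 1525 to 2370 in the P1 libraries, 21699 to 33361 in those of P7, 311037 to 369681 in those of P14, above the astrocyte sum, and 101890 to 141604 in those of P28. All 8 were called higher at P28 than at P1 (median log2 fold change 5.88). For 8 general neuron markers the sum lay between 2596 and 6512 (P1), 24129 and 42543 (P14), and 14167 and 18749 (P28). The summed level of 14 markers of meningeal and perivascular fibroblasts ranged from 10580 to 42198 in the P1 libraries and from 11149 to 23286 in those of P7. The range was 10326 to 14144 for P14 and 6001 to 6905 for P28. The 12 markers of choroid plexus epithelium summed to 1287 to 2828 in the P1 libraries, and to 49617 to 131009, 1368 to 112385 and 18267 to 187266 in those of the later ages in turn. None of the fibroblast or choroid plexus markers was at 0 at any age. P1 replicate 2 stood highest in fibroblast markers and P7 replicate 2 in endothelial markers (11589, against 1893 and 2959 in the other P7 libraries), and results are also given without them where that matters. The part of these cells in the changes described below was not tested. In such bulk samples fewer cells of a type and less RNA per cell cannot be told apart.

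From P1 to P28, 8 of the 9 genes fell and Ndn did not change by the test. A gene was called where its adjusted p was under 0.05 (limma on log2 of the normalized count plus 1, one fit over the 12 libraries, Benjamini-Hochberg adjustment over all genes tested). By this rule 34.6% of all genes were called between P28 and P1, and 20% were called lower. For each of the 8 genes, the 3 P28 libraries were all below the 3 P1 libraries, as was the case for 24% of all genes. The median log2 fold change of the 9 genes was -3.22, beside -0.24 over all genes. This median is the value of Cdkn1c and was the same with Dlk1, which had no reads at P28, set at its bound. Leaving out any single library gave 8 calls each time, and leaving out P1 replicate 2 and P7 replicate 2 together gave 7, with Igf2 no longer called (adjusted p = 0.0506). A fit of the P1 and P28 libraries alone gave 7 as well, again without Igf2 (adjusted p = 0.0795).

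**Figure D1:**
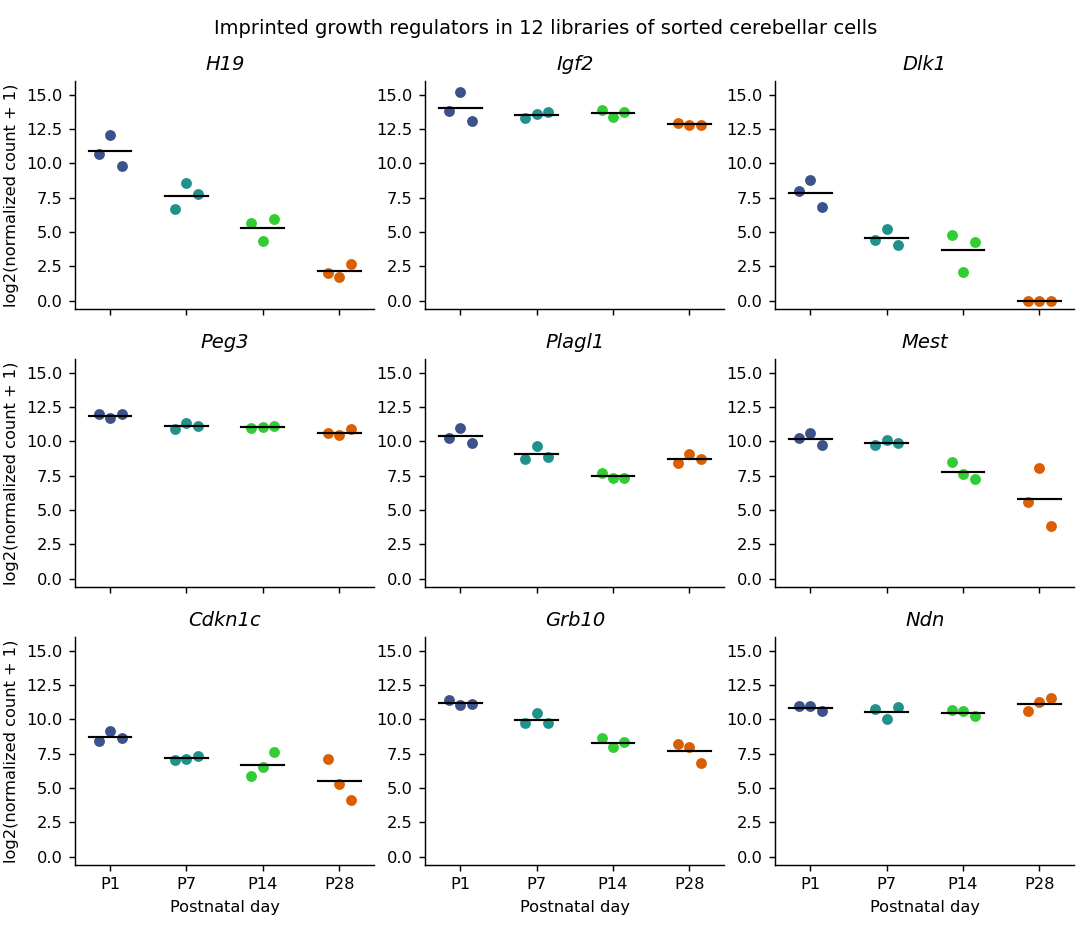
Level of each of the 9 genes in each library as log2(normalized count + 1), with postnatal day on the x axis, 1 point per library and a line at the mean of 3. H19 and Dlk1 drop the farthest, Igf2 stays highest, Plagl1 is lowest at P14, and the ages overlap for Ndn.

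H19, the noncoding RNA of the Igf2 domain, had the largest fitted log2 fold change from P1 to P28, -8.73. Dlk1 had no reads at P28, so its fold has only a lower bound and cannot be ranked against that of H19. H19 had 1679, 4320 and 893 normalized counts in P1 replicates 1, 2 and 3. At P7 it had 98.7, 378 and 215, at P14 48.7, 19.04 and 59.7, and at P28 2.92, 2.36 and 5.41, the last being 8 reads over 3 libraries. The 4 ages did not overlap, and each was below the one before. The mean fell 9.96-fold from P1 to P7 (log2 fold change -3.21 ± 0.67 SE, adjusted p = 0.0084), 5.43-fold from P7 to P14 (-2.36 ± 0.67, adjusted p = 0.0223) and 11.9-fold from P14 to P28 (-3.16 ± 0.67, adjusted p = 0.00777). From P1 to P28 it was 645-fold lower, with a 95% interval of 327 to 1493 that covers counting error only, and the adjusted p was 3.53e-07. The step from P1 to P7 was not called without P1 replicate 2 (adjusted p = 0.0727) or P7 replicate 1 (adjusted p = 0.0519), nor that from P7 to P14 without P14 replicate 2, P7 replicate 2 or P7 replicate 3 (highest adjusted p = 0.117). The step from P14 to P28 was not called in a fit of those libraries alone (adjusted p = 0.117). The fall from P1 to P28 was called without any single library.

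Igf2, the growth factor of the same domain, was high at each age. It had 14193, 36858 and 8878 normalized counts at P1, and 9875, 12130 and 13828 at P7. At P14 it had 14878, 10654 and 13841, and at P28 7776, 7216 and 7142. The first 3 ages overlapped, and only the P28 libraries were below all others. No consecutive step was called: the difference was -0.50 ± 0.36 (log2 fold change) between P1 and P7 (adjusted p = 0.537), 0.14 ± 0.36 from P7 to P14 (adjusted p = 0.847) and -0.82 ± 0.36 from P14 to P28 (adjusted p = 0.137). From P1 to P28 it was 2.71-fold lower (-1.18 ± 0.36, adjusted p = 0.0194), a call lost in a fit of those libraries alone (adjusted p = 0.0795), and without P1 replicate 2 the log2 fold change was -0.61. The step from P14 to P28 was called without that library (-0.82, adjusted p = 0.0138) and in a fit of the P14 and P28 libraries alone (adjusted p = 0.0111). Igf2 took 0.0566% to 0.404% of all reads on genes and 44.4% to 76.2% of the summed normalized counts of the 9 genes.

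Read against each other within a library, the neighbours moved apart. H19 stood at 11.2 ± 0.99 (SD, n = 3) normalized counts per 100 of Igf2 in the P1 libraries and at 1.89 ± 1.10 in those of P7. It stood at 0.313 ± 0.127 by P14 and at 0.0487 ± 0.0236 by P28. At P1 this ratio was 11.8, 11.7 and 10.1 in replicates 1, 2 and 3, although Igf2 itself spanned 8878 to 36858 in the same libraries. The ranges of the ratio at the 4 ages did not overlap. Since it is formed within a library, the size factor does not enter it.

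**Figure D2:**
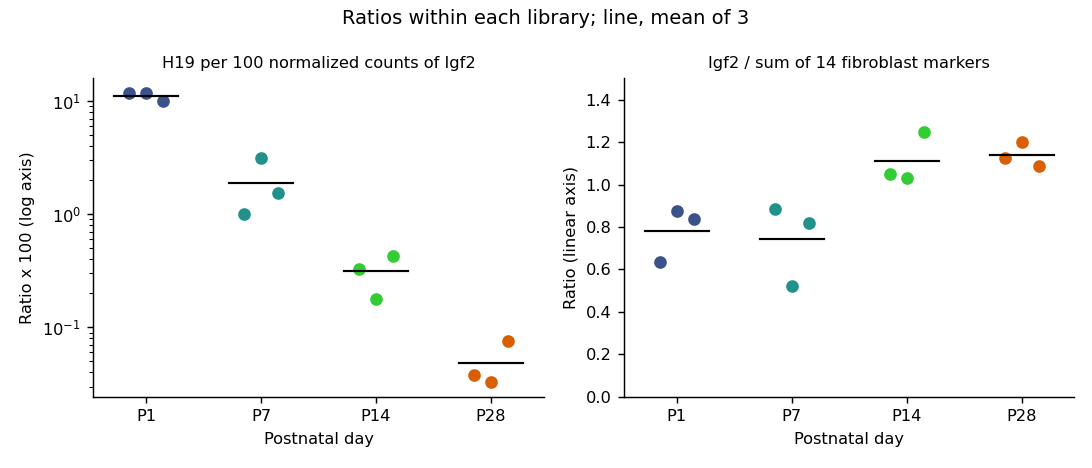
Ratios formed within each library, with postnatal day on the x axis, 1 point per library and a line at the mean of 3. Left, H19 per 100 normalized counts of Igf2 on a log axis, from 11.2 at P1 to 0.0487 at P28. Right, Igf2 divided by the summed normalized counts of 14 fibroblast markers on a linear axis, between 0.521 and 0.886 at P1 and P7 and between 1.03 and 1.25 at P14 and P28.

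Over the 12 libraries the gene with the pattern most like that of Igf2 was Dcn, which encodes the matrix proteoglycan decorin and is on the list of fibroblast markers (Pearson r = 0.949 on the log2 scale), followed by Slc16a3 (0.940) and Akap12 (0.928). Divided by the sum of all 14 fibroblast markers in the same library, Igf2 was at 0.635, 0.873 and 0.839 in the P1 libraries and at 0.886, 0.521 and 0.820 in those of P7. The ratio was 1.05, 1.03 and 1.25 by P14 and had a mean of 1.14 ± 0.0586 (SD, n = 3) by P28. The P14 and P28 libraries were thus above all of those at P1 and P7, and the lowest ratio was that of P7 replicate 2, which had the highest marker sum of its age. P1 replicate 2 had both the highest Igf2 and the highest marker sum of all libraries (36858 and 42198). Of the 14 fibroblast markers, 11 were called lower and 0 higher at P28 than at P1, where 20% of all genes were called lower. Their median log2 fold change was -1.64, and from P7 to P14 it was -0.47 with 0 called. Of the 12 choroid plexus markers, 6 were called higher and 1 lower at P28 than at P1 (median 3.08). The part of these cells in the levels of Igf2 and of the other 8 genes was not tested.

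Dlk1, known for holding back differentiation in several lineages, was the lowest of the 9 per kilobase of exon at each age and the only one without a read at P28. It had 249, 442 and 111 normalized counts in the P1 libraries and 19.9, 36.6 and 15.5 in those of P7. It then had 26.5, 3.17 and 18.5 (P14), and 0 in all 3 libraries of P28. The P1 libraries were above all others, P7 and P14 overlapped, and P28 was below all others. From P1 to P7 it fell 11.1-fold (log2 fold change -3.30 ± 0.85, adjusted p = 0.0274), and it did not pass the test from P7 to P14 (-0.85 ± 0.85, adjusted p = 0.551). With a floor of 3 reads per library at P28, it was at least 4.02-fold lower there than at P14 (adjusted p = 0.011) and at least 66.9-fold lower than at P1 (adjusted p = 8.59e-06). The step from P1 to P7 was not called without P1 replicate 1 or 2 or any P7 library (highest adjusted p = 0.145), nor with a pseudocount of 0.1 (adjusted p = 0.0829) or with no filter on low values (adjusted p = 0.0511). The call from P14 to P28 was lost with a pseudocount of 10 (-1.26, adjusted p = 0.134), and P14 replicate 2 had 3 reads, no more than the floor.

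Over the 12 libraries the pattern of Dlk1 was the most like that of H19 among all genes tested (r = 0.975), ahead of Ctnna2 (0.973) and Tacr3 (0.969). For Dlk1 the first was Tnni3 (0.986), followed by H19 and Zfhx4 (0.974). These 12 points share 4 ages, so any genes that fall with age come out alike. Among the pairs that the 9 genes form, r ranged from -0.44 (Cdkn1c and Ndn) to that of H19 and Dlk1.

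Plagl1 is a transcription factor reported to act on other imprinted genes, H19, Igf2, Dlk1 and Cdkn1c among them. It was the only one of the 9 with called falls followed by a called rise. Its normalized counts were 1212, 1963 and 962 in the P1 libraries and 417, 798 and 475 in those of P7. They were 208, 157 and 159 by P14 and 335, 527 and 418 by P28. The P14 libraries were below all others, and P7 and P28 overlapped. It fell 2.45-fold from P1 to P7 (log2 fold change -1.28 ± 0.31, adjusted p = 0.0207) and 3.23-fold from P7 to P14 (-1.64 ± 0.31, adjusted p = 0.00174), then rose 2.45-fold from P14 to P28 (1.27 ± 0.31, adjusted p = 0.0157). At P28 it was still 3.23-fold below P1 (-1.65 ± 0.31, adjusted p = 0.00102). The first step was not called without P1 replicate 1 or 2 or P7 replicate 1 or 3 (highest adjusted p = 0.12). The rise was not called without P14 replicate 2 or 3 (highest adjusted p = 0.0556) or in a fit of the P14 and P28 libraries alone (adjusted p = 0.0761). The genes most like it were Nsun7 (r = 0.929), Frem2 (0.920) and F13a1 (0.916).

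Grb10, the adaptor below the insulin and IGF1 receptors, fell in the first and in the second week. Its normalized counts were 2776, 2152 and 2268 in the P1 libraries and 855, 1391 and 868 in those of P7. They were 399, 249 and 318 by P14 and 299.6, 249 and 110 by P28. P1, P7 and the later ages did not overlap, while P14 and P28 did. It changed by -1.24 ± 0.34 (log2 fold change) between P1 and P7 (adjusted p = 0.0367), -1.67 ± 0.34 from P7 to P14 (adjusted p = 0.00246) and -0.65 ± 0.34 from P14 to P28 (adjusted p = 0.212). At P28 it was 10.9-fold lower than at P1 (-3.56 ± 0.34, adjusted p = 2.43e-06). The first step was not called without any one of the P1 libraries, P7 replicate 1 or 3, or P14 replicate 3 (highest adjusted p = 0.151), nor with scaling by library totals alone (adjusted p = 0.0568). The genes most like it were Ext1 (r = 0.980), Rad54l2 (0.959) and Topors (0.954).

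Mest was lower than at P1 from P14 on. It had 1198, 1591 and 846 normalized counts at P1 and 837, 1092 and 933 at P7, which overlapped (log2 fold change -0.31 ± 0.72, adjusted p = 0.907). At P14 it had 352, 196 and 154, all below P7, but the step missed the threshold (-2.10 ± 0.72, adjusted p = 0.0507). It passed under 6 of the alternatives: DESeq2 (0.0126), edgeR (0.0459), a fit of the P7 and P14 libraries alone (4.89e-04), a pseudocount of 10 (0.0255), a replicate block (0.0269) and library totals (0.0274), each an adjusted p. At P28 it had 46.8, 263 and 13.5, a wide spread that overlapped P14 (-1.96 ± 0.72, adjusted p = 0.0817). Against P1 it was 11.2-fold lower at P28 (-4.37 ± 0.72, adjusted p = 3.37e-04) and 5.18-fold lower at P14 (-2.41 ± 0.72, adjusted p = 0.0278). Without P28 replicate 2, the library at 263, both of the later steps were called (adjusted p = 0.00264 and 0.00157), as was that from P7 to P14 without P28 replicate 3 (adjusted p = 0.00673), and P14 was not called against P1 without P1 replicate 1 or 2 or P14 replicate 2 or 3 (highest adjusted p = 0.103). The last kilobase of Mest overlaps Copg2 on the other strand, a coatomer subunit gene, and whether strand was used in counting is not given in the sources used here. Copg2 itself had means of 1349, 1178, 1278 and 1551 at the 4 ages and did not pass the test in any step or from P1 to P28 (0.20, adjusted p = 0.405). The genes most like Mest were Maff (r = 0.981), Rps6ka6 (0.980) and Nfatc4 (0.972).

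Cdkn1c, the cell cycle inhibitor, fell over the 4 weeks without a single step that passed the test in the fit over the 12 libraries. It had 339, 575 and 399 normalized counts at P1 and 131, 139 and 160.5 at P7, all below P1 (log2 fold change -1.57 ± 0.65, adjusted p = 0.182), a step that was called in a fit of the P1 and P7 libraries alone (adjusted p = 0.0027). At P14 it had 57.2, 93.1 and 195, which overlapped P7, and at P28 140, 38.9 and 16.2, which overlapped P14. At P28 it was 6.72-fold lower than at P1 (-3.22 ± 0.65, adjusted p = 0.00161) and at P14 3.80-fold lower (-2.06 ± 0.65, adjusted p = 0.0355). The call at P14 was lost without any one of the P1 libraries, P14 replicate 1 or 2, or P7 replicate 1 or 3 (highest adjusted p = 0.134). Without P28 replicate 1, the library at 140, the step from P14 to P28 was called (-1.97, adjusted p = 0.0241). The summed markers of cycling cells were higher at P7 than at P1, unlike Cdkn1c, and then fell. The sum was not tested. From P1 to P7, 1 of the 12 markers was called higher and 0 lower (median log2 fold change 0.67), where 7.7% of all genes were called. The markers summed to 11092 to 18693 in the P1 libraries and 23670 to 29869 in those of P7. The sum was 1471 to 2183 by P14 and 604 to 968 by P28. All 12 markers were called lower at P28 than at P1, as were 20% of all genes. The genes most like Cdkn1c were Igfbp5 (r = 0.953), Snrpn (0.948) and Emp1 (0.939).

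Peg3 fell in the first week, and was lower at P28 than at P7 by a call that several alternatives ended. Its normalized counts were 4069, 3253 and 4072 in the P1 libraries and 1958, 2564 and 2184 in those of P7. They were 2014, 2114 and 2223 by P14 and 1523, 1379 and 1915 by P28. P1 was above all later ages and P28 below all earlier ones, while P7 and P14 overlapped. It changed by -0.77 ± 0.17 (log2 fold change) between P1 and P7 (adjusted p = 0.011), -0.07 ± 0.17 from P7 to P14 (adjusted p = 0.828) and -0.41 ± 0.17 from P14 to P28 (adjusted p = 0.114), the last being called without P28 replicate 3 (adjusted p = 0.0452) and by library totals (adjusted p = 0.0193). The first step was not called without P1 replicate 1 or P7 replicate 1 (highest adjusted p = 0.061). From P7 to P28 it was 1.39-fold lower (-0.48 ± 0.17, adjusted p = 0.0338), a call lost without P7 replicate 2 or 3 or P28 replicate 1 or 2 (highest adjusted p = 0.135), by edgeR (0.0517) and in a fit of the P7 and P28 libraries alone (0.0803). From P1 to P28 it was 2.37-fold lower (-1.25 ± 0.17, adjusted p = 6.10e-05). The genes most like it were Dner (r = 0.948), Pdzph1 (0.945) and Prph (0.917).

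Ndn, whose protein is best known as a growth suppressor of postmitotic neurons, was the exception. Its normalized counts were 2020, 1966 and 1544 in the P1 libraries and 1717, 1051 and 1943 in those of P7. They were 1606, 1533 and 1189 by P14 and 1534, 2443 and 3002 by P28. The ages overlapped in each comparison. The log2 fold change was 0.29 ± 0.26 from P1 to P28 (adjusted p = 0.413) and 0.65 ± 0.26 from P14 to P28 (adjusted p = 0.114). Without P28 replicate 1 the latter was called (0.92, adjusted p = 0.0254). Among the 9 it was second per kilobase of exon from P7 on, at 425 ± 126, 390 ± 60.2 and 630 ± 201 normalized counts per kilobase at P7, P14 and P28, and behind Igf2 and H19 at P1 with 499 ± 70.5. The genes most like it were 1810043H04Rik (r = 0.883), Mrpl52 (0.876) and Rab11fip5 (0.868), all less like it than the first genes named for the other 8 were like theirs.

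The order of levels among the 9 therefore changed with age. Per kilobase of exon Igf2 was highest throughout, at 3491 ± 2596 normalized counts at P1 and 1289 ± 60.6 at P28. H19 was second at P1, with 934 ± 730, sixth at P7 with 93.7 ± 57.1, and second to last at P28 with 1.45 ± 0.66. These are levels of different genes and were not tested against each other.

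By single steps, the 9 genes were called as follows. From P1 to P7, 5 fell (H19, Dlk1, Peg3, Plagl1 and Grb10) and 0 rose, where 7.7% of all genes were called and 4.24% were called lower. The median log2 fold change of the 9 was -1.24, beside 0.04 over all genes. This count depended on single libraries: it was 0 without P7 replicate 1, 1 without P1 replicate 1 or P1 replicate 2, 2 without P7 replicate 3, and 1 without P1 replicate 2 and P7 replicate 2 together. From P7 to P14, 3 fell (H19, Plagl1 and Grb10) and 0 rose, where 20.9% of all genes were called and 10% lower. The median of the 9 was -0.85, beside -0.09. From P14 to P28, 2 fell (H19 and Dlk1) and Plagl1 rose, where 14.4% of all genes were called, 8.76% lower and 5.68% higher. The median was -0.82, beside -0.12. Without P28 replicate 1 the count from P14 to P28 was 5, and it was 2 without P14 replicate 2 or P14 replicate 3. The count from P7 to P14 was 2 without P14 replicate 2, P7 replicate 2 or P7 replicate 3. Against P1, 7 of the 9 were called at P14 (20.4% of all genes), and 5 were called at P28 against P7 (39.2% of all genes), each of them lower. Over all 4 ages at once, 7 of the 9 differed by the limma F test, as did 43.8% of all genes, and Igf2 (adjusted p = 0.0688) and Ndn (adjusted p = 0.171) did not pass.

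**Figure D3:**
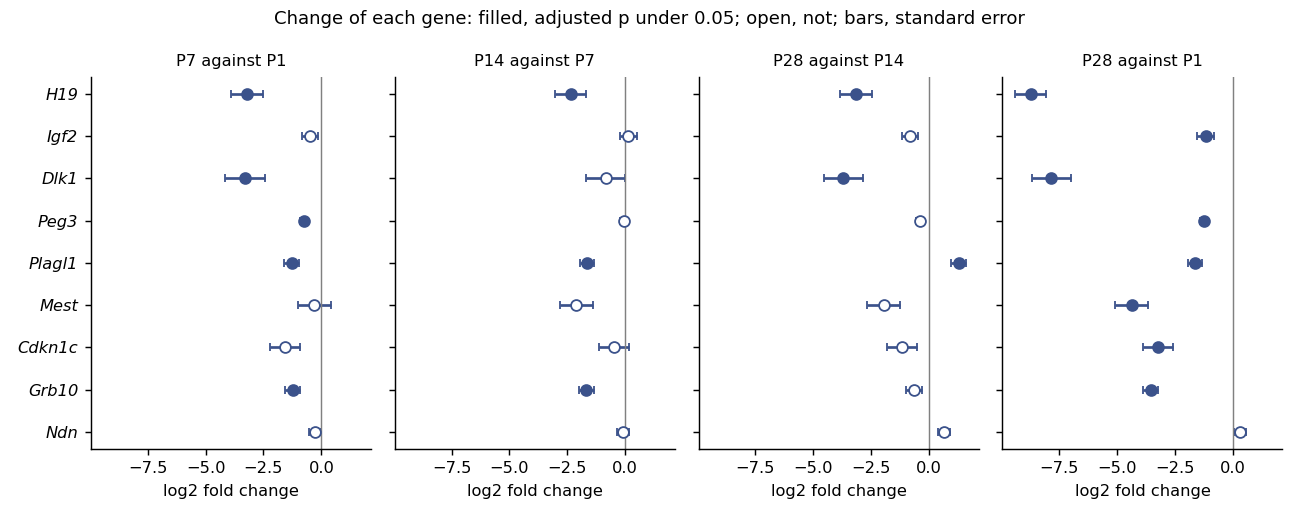
Log2 fold change of each of the 9 genes in 4 comparisons, 1 panel each, with bars for the standard error; filled points have an adjusted p under 0.05 and open points do not. From P1 to P28, 8 filled points lie left of 0 and Ndn is open.

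Promoter sequence is shown for 3 genes because the factors that read it, or that guard imprints, were measured here. In the 250 bases before and 50 after each RefSeq start, 2 motifs were searched on both strands: GGGGCCCC, a palindrome of the kind bound by the Plagl1 protein, and TGCCGC, the site of ZFP57, a zinc finger protein that protects methylated imprints. Of the 9 genes, 7 had a window, with 13 windows among them. The first motif was in 1.08% of 32851 windows and in 1 of the 13, that of Peg3. The second was in 11.6% of windows and in 5 of the 13, from 4 genes, Grb10, Igf2, Mest and Plagl1. The Mest windows that held it started at chr6:30737800 and chr6:30737803, so they are nearly the same stretch. TGCCGC holds a CpG (C followed by G), and the 5 windows with this motif had 14 to 45 CpGs. Over all windows the median was 7 and the upper quartile 20. The shares were not matched for CpG content. The 250 bases before the start are given 5′ to 3′ on the strand of the gene (RefSeq, GRCm38.p6), with the motif in capitals; GCGGCA is TGCCGC read on the other strand. The 2 motifs did not overlap in them.
Peg3 (chr7:6730420-6730669, minus strand): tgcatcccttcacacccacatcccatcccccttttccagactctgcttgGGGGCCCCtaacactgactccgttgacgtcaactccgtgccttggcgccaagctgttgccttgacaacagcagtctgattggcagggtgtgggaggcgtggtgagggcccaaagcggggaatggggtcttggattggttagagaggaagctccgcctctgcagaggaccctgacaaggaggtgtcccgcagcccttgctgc
Plagl1 (chr10:13090582-13090831, plus strand): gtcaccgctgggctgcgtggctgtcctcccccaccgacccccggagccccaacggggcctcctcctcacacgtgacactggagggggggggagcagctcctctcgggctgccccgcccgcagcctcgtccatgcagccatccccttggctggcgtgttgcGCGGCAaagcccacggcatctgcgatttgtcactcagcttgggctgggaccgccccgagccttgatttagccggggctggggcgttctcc
Mest (chr6:30737800-30738049, plus strand): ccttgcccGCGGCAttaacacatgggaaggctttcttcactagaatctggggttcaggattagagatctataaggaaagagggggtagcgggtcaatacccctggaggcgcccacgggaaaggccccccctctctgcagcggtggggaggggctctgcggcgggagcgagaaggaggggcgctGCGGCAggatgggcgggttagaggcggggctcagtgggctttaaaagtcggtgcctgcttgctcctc
A match describes the letters in these windows and no binding was measured.

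Of 11 genes of fetal growth programmes and imprint maintenance, 8 were tested, and all 8 were called lower at P28 than at P1, with a median log2 fold change of -1.56 (20% of all genes were called lower). The count was 5 without P1 replicate 1 and 5 at the study's threshold, an unadjusted p below 0.05 with an absolute log2 fold change above 0.75. From P7 to P14, 7 of the 8 were called lower, against 10% of all genes, and 4 without P7 replicate 1 or P7 replicate 3. Zfp57, the factor named above, had 572 ± 212 (SD, n = 3) normalized counts at P1 and 1249 ± 157 a week later, 195 ± 133 in the P14 libraries and 8.49 ± 11.8 in those of P28, and it fell from P7 to P14 (-2.88, adjusted p = 0.0228) and from P14 to P28 (-5.17, adjusted p = 0.00163). Trim28, the corepressor that ZFP57 recruits, went from 1440 ± 193 at P7 to 764 ± 315 at P14 (-0.98, adjusted p = 0.0448). Ctcf, which binds the unmethylated control region between H19 and Igf2, went from 1988 ± 176 to 1108 ± 221 over the same step (-0.86, adjusted p = 0.00648). Uhrf1, which guides DNA methylation at replication, went from 330.1 ± 13.6 to 5.34 ± 2.12 (-5.76, adjusted p = 0.00155). All 12 markers of cycling cells and all 7 of GABAergic interneuron precursors were called lower over this step too. All 8 markers of oligodendrocytes were called higher. The part of these cells in the result was not tested. Zfp445, another zinc finger protein of imprint maintenance, was lower at P28 than at P1 (-0.66, adjusted p = 0.0324). Hmga2, a chromatin protein of fetal growth, fell in the first week from 210.0 ± 50.4 to 22.6 ± 13.9 (-3.40, adjusted p = 0.0233). The calls of Zfp57 and Trim28 from P7 to P14 were lost without P14 replicate 1 or 2 or any P7 library (highest adjusted p = 0.0947 and 0.181), that of Hmga2 without any P1 library or P7 replicate 2 or 3 (0.138), and that of Zfp445 without any P1 library or P28 replicate 2 (0.121). With a pseudocount of 0.1 those of Zfp57 (0.162), Trim28 (0.0522) and Hmga2 (0.216) were lost, Trim28 also by edgeR (0.0789), DESeq2 (0.0503) and with no filter (0.0584), and Zfp445 by edgeR (0.0559) and in a fit of the 2 ages alone (0.109).

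Of 22 genes of IGF signalling, 20 were tested, and 9 were called lower and 1 higher at P28 than at P1, with a median of -2.11, where 34.6% of all genes were called and 20% lower. The receptors did not pass the test: Igf1r, the receptor through which IGF2 acts on growth, had means of 2814, 1975, 1899 and 2477 at the 4 ages (log2 fold change from P1 to P28 -0.20, adjusted p = 0.487), and Insr, the insulin receptor, 2222, 2198, 2431 and 2013 (-0.16, adjusted p = 0.498). Scaled by library totals alone, where the median over all genes was -0.67, both were called lower (-0.64 and -0.60). Igf2bp1, an RNA-binding protein that takes its name from Igf2 mRNA, fell from 367 ± 61.2 at P1 to 18.8 ± 5.80 at P7 (-4.25, adjusted p = 0.00722) and to 2.12 ± 3.67 at P14 (-3.30, adjusted p = 0.0141). Igfbp5, an IGF-binding protein, fell from 4374 ± 778 at P1 to 873 ± 340 at P28 (-2.39, adjusted p = 9.53e-06). Igfbp3, another, fell from 478 ± 172 at P14 to 134 ± 107 at P28 (-2.34, adjusted p = 0.0481). That call was lost without any one of 9 libraries, P28 replicate 3 among them (highest adjusted p = 0.161), and that of Igf2bp1 from P7 to P14 without P7 replicate 1 or 3 or P14 replicate 2 or 3 (highest adjusted p = 0.064). The first step of Igf2bp1 was not called without P1 replicate 2 and P7 replicate 2 together (adjusted p = 0.123) or with a pseudocount of 0.1 (adjusted p = 0.154). At P14 Igf2bp1 had 6 reads in replicate 1 and 0 in replicates 2 and 3, so the size of its second fall rests on few reads. The call of Igfbp3 from P14 to P28 was lost by edgeR (0.0894), in a fit of the 2 ages alone (0.102), with that pseudocount (0.0561) and with no filter (0.068).

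The other imprinted genes did not all go the way of the 9. Of 23 genes listed as expressed from the paternal copy, 21 were tested, and from P1 to P28 11 were called lower and 1 higher (Rasgrf1), with a median of -1.21, where 34.6% of all genes were called. Nnat, which encodes the proteolipid neuronatin, fell from 11704 at P1 to 3325 at P7 (-1.87, adjusted p = 0.00228) and was at 1351 at P28. Kcnq1ot1, the noncoding RNA that silences its neighbours on the paternal copy, fell from P7 to P14 (-1.03, adjusted p = 0.0214) and from P14 to P28 (-0.92, adjusted p = 0.0489). The first of these calls was lost without P7 replicate 2 or P14 replicate 2 (highest adjusted p = 0.104) and the second without any one of 8 libraries (highest adjusted p = 0.154), by edgeR (0.058), in a fit of the 2 ages alone (0.061), with a pseudocount of 0.1 (0.0547) and with no filter (0.0687). Gab1, an adaptor of growth factor receptors, did not pass the test from P1 to P28 (-0.25, adjusted p = 0.223), other than by library totals (-0.69, adjusted p = 0.00332). Of 28 genes listed as expressed from the maternal copy, 25 were tested. From P1 to P28, 4 were called lower and 3 higher, with a median of -0.10. These 7 are 28% of the 25, below the share over all genes. Of the 4 lower calls, that of Meg3 held without any single library. Those of Rian, Mirg and Kcnk9 were lost without P1 replicate 2 (adjusted p = 0.122, 0.125 and 0.066). That of Kcnk9 was also lost without P1 replicate 3 or P28 replicate 2 or 3 (highest adjusted p = 0.102) and by edgeR (0.111). Cd81, a tetraspanin, rose from 10233 at P1 to 39881 at P28 (1.98, adjusted p = 2.51e-06), and Gnas, a G protein subunit, did not pass the test (-0.29, adjusted p = 0.12), other than by library totals (-0.73, adjusted p = 7.36e-04). Cdh15, a cadherin, rose from P7 to P14 (4.52, adjusted p = 0.00332), and Kcnk9, a potassium channel, fell from 121 ± 44.3 at P14 to 2.92 ± 5.06 at P28 (-5.78, adjusted p = 0.00127). The calls in these 2 lists were not tested against each other. Whether each listed gene is imprinted in these cells was not measured. Dcn is on the maternal list and also among the fibroblast markers.

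**Figure D4:**
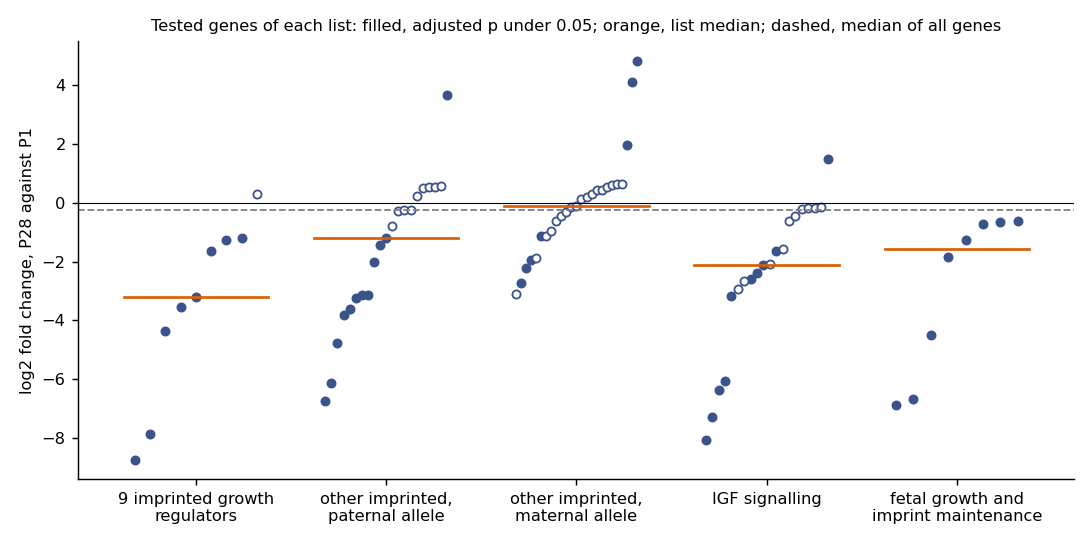
Log2 fold change from P1 to P28 (y axis) of each tested gene in 5 lists (x axis), filled where the adjusted p is under 0.05, with an orange line at the list median and a dashed line at the median of all genes. The medians are -3.22 for the 9 genes, and -1.21 and -0.10 for other genes listed as expressed from the paternal and maternal copies. They are -2.11 for IGF signalling and -1.56 for fetal growth and imprint maintenance.

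Imprinted genes often sit in clusters under shared control regions. Neighbours were taken here by distance alone, so they need not share a control region with the gene they lie beside. Within 3.52 Mb of 8 of the 9 lie 25 of the listed genes. Of these, 20 were tested. From P1 to P28 10 were called lower and 1 higher (Cd81), where 20% of all genes were called lower. The falls lay mainly beside Dlk1 (4 of 4 tested neighbours) and Ndn (4 of 6), with 1 of 2 beside Peg3. Of the 6 tested neighbours shared by H19, Igf2 and Cdkn1c, 1 was called lower and 1 higher. The 1 tested neighbour of Mest and that of Grb10 were not called. The genes named here were chosen after their values were seen. Beside Dlk1, the maternally expressed noncoding RNA Meg3 had another order of levels, with 3344 ± 1103 (SD, n = 3) normalized counts at P1, 1990 ± 478 a week later, 4153 ± 1161 in the P14 libraries and 872 ± 325 in those of P28, and with a rise from P7 to P14 (1.05, adjusted p = 0.0321) and a fall from P14 to P28 (-2.29, adjusted p = 7.33e-04). Rian and Mirg, transcribed in the same direction, were also called lower from P14 to P28 (-1.75, adjusted p = 0.00793, and -3.29, adjusted p = 0.00862). Rtl1, the paternally expressed neighbour, was lower at P28 than at P1 (-3.80, adjusted p = 0.00686). Beside Peg3, Usp29 had means of 124, 178, 152 and 22.7 and fell from P14 to P28 (-3.48, adjusted p = 0.0158). The rise of Meg3 was not called without P7 replicate 1 or 3 or P14 replicate 1 or 3 (highest adjusted p = 0.132), nor by library totals (0.11), and the fall of Usp29 was lost without P14 replicate 1 or 3 (0.0605). In a fit of the 2 ages alone the falls of Mirg (0.081) and Usp29 (0.0918) from P14 to P28 were not called, nor was Rtl1 by edgeR (0.0516). Calls from P1 to P28, which the counts of neighbours rest on, were also lost. That of Rian was lost without P1 replicate 2 or 3 or P28 replicate 1 or 2 (highest adjusted p = 0.122). That of Mirg was lost without P1 replicate 2 (0.125). A fit of the P1 and P28 libraries alone did not call Rian (0.085), Mirg (0.084) or Usp29 (0.078).

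Of the 6 tested neighbours of Ndn, 4 were called lower at P28 than at P1, where 20% of all genes were. Magel2, a ubiquitin ligase regulator next to it, had 92.3 to 123 normalized counts at P1 and 20.9 to 71.7 at P7, and was at 0 in all 6 libraries at P14 and P28 (called lower from P7 to P14, adjusted p = 1.18e-04). Peg12 had 64.4 to 72.9 at P1, 27.5 to 44.6 at P7 and 30.7 to 59.7 at P14, and was at 0 in the 3 libraries at P28 (adjusted p = 2.90e-04 against P14). Mkrn3 and Snrpn were called lower at P28 than at P1 (-3.22, adjusted p = 0.0263, and -4.75, adjusted p = 6.38e-04). Ube3a, a ubiquitin ligase of this domain listed as expressed from the maternal copy, rose from P1 to P7 (0.71, adjusted p = 0.0409). It did not differ by the test between P1 and P28 (0.43, adjusted p = 0.107), other than without P28 replicate 3 (adjusted p = 0.0217). The rise of Ube3a was not called without any one of the P1, P7 or P14 libraries (highest adjusted p = 0.162) or with no filter (0.0507). The fall of Mkrn3 was lost without P1 replicate 1 or 3 or P28 replicate 2 or 3 (0.106), by DESeq2 (0.0671), by edgeR (0.138) and in a fit of the 2 ages alone (0.0792).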

How the data were processed

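RNA of GFP-sorted cells was amplified (Trio RNASeq) and sequenced. The authors aligned reads to mm10 with STAR (2.5.0a), counted them per gene and normalized with DESeq2, per the labels and the study's methods; the version is 1.30.1 in the submitters' processing notes, and the methods give another. The deposited values are a signal on the normalized-count scale, counts divided by 1 size factor per library. Dividing by each library's smallest step gave whole reads for 100% of values (tolerance 0.01). Table columns were matched to libraries through the labels. All column names carry P28 and 0 columns were left over, so ages rest on the labels. The members and gene lists were chosen with earlier results of these data known.

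limma (3.58.1, R 4.3.3) was run on log2(value + 1) with a variance trend over 12 libraries, for the 15464 genes that reached 10 in 3 or more libraries. The pseudocount shrinks the fold changes of low genes. Folds in the text are ratios of means. With 3 against 3 libraries an exact permutation test of a single gene cannot go below p = 0.1, so none is given. In each gene list the text names the 3 genes with the highest means and, per step, the gene with the largest called change. Genes most like a member are the 3 with the highest Pearson r over 12 libraries. On simulated data, limma called 110 of 200 genes changed by 2 (log2) and 8 unchanged ones in P14 against P7 (15517 genes). Replicate pairs differed by more than sampling noise. Alternatives were edgeR (4.0.16) and DESeq2 (1.42.0) on the recovered reads, other scalings, pseudocounts, filters, a replicate block, and leaving libraries out. Intervals and floors (3 reads) cover counting error only.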

Additional observations from a re-analysis of the deposited data

How the results depend on the processing

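Of 2417 log2 fold changes under the alternatives, for 110 pairs of a gene and a comparison, 2177 kept their direction and their side of the threshold, 31 passed it only under the alternative, 194 missed it and 15 changed sign. Scaling by library totals alone moved the median over all genes to 0.10, -0.35, -0.35 and -0.67 in P7 against P1, P14 against P7, P28 against P14 and P28 against P1, from 0.04, -0.09, -0.12 and -0.24. Depth limits Dlk1 and H19 at P28, at 0 and 8 reads over 3 libraries. The causes of the changes below were not tested; leaving libraries out also leaves fewer samples.

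The sign changed only for values that did not pass the test, both in the fit over the 12 libraries and under the alternative. Not all were near 0 in the fit over the 12 libraries: Igf2 was at -0.50 in P7 against P1 and at -0.36 in P14 against P1. Without P1 replicate 2 and P7 replicate 2, Igf2 was at 0.058 and Ndn at 0.049 in P7 against P1, Peg3 at 0.033 in P14 against P7 and Igf2 at 0.21 in P14 against P1. By totals alone, Igf2 was at -0.12 in P14 against P7, and Ndn at -0.14, Copg2 at -0.24 and Ube3a at -0.0066 in P28 against P1. With each library left out in turn, Igf2 ranged from -0.95 to 0.076 (P7 against P1, positive without P1 replicate 2), from -0.82 to 0.21 (P14 against P1, likewise), Peg3 from -0.16 to 0.033 (P14 against P7, positive without P7 replicate 2), Ndn from -0.35 to 0.090 (P14 against P7, positive at 0.046, 0.0013 and 0.090 without P14 replicate 3, P7 replicate 1 and P7 replicate 3), and Insr from -0.31 to 0.020 (P28 against P1, positive without P28 replicate 1). Ndn ranged from -0.45 to -0.0026 in P7 against P1.

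Counts of the 9 genes called moved by over 1.5 times in 3 settings other than leaving out a single library. From P1 to P7 the count went to 1 without P1 replicate 2 and P7 replicate 2, a setting chosen after seeing the data. From P14 to P28 it went to 1 with only the ages compared and to 5 at the study's threshold. That threshold was read here as an unadjusted p below 0.05 with an absolute log2 fold change above 0.75. Of the other imprinted genes 3 were called from P1 to P7, and 7 by DESeq2, 8 with only the ages compared, 6 with a pseudocount of 10 and 8 at the study's threshold. For them the count was 17 with only the ages compared from P7 to P14 (10 in the fit used here) and 18 at the study's threshold from P14 to P28 (8). Of the IGF signalling genes, 4 were called from P1 to P7, and 10 with only the ages compared, 2 with a pseudocount of 0.1, 8 at the study's threshold and 0 without the 2 libraries. From P7 to P14 they went from 3 to 5 with only the ages compared and to 1 without the 2 libraries. From P14 to P28 they went from 3 to 1 with no filter on low values, 1 with only the ages compared and 6 at the study's threshold, and from P1 to P28 from 10 to 16 by totals alone. The fetal growth and imprint maintenance genes went from 1 to 2 by DESeq2, 3 with only the ages compared, 0 with a pseudocount of 0.1 and 0 without the 2 libraries from P1 to P7, from 1 to 2 by totals alone and at the study's threshold from P14 to P28, and from 8 to 5 at the study's threshold from P1 to P28. Over all genes, 1191 calls from P1 to P7 became 1857 by DESeq2, 2810 with only the ages compared, 2198 at the study's threshold and 385 without the 2 libraries. From P14 to P28, 2232 became 863 with only the ages compared and 3725 at the study's threshold, and from P1 to P28 5350 became 3350 with only the ages compared.

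With each library left out in turn, the 9 genes gave 0 to 5 calls from P1 to P7, 2 to 4 from P7 to P14, 2 to 5 from P14 to P28, 8 to 8 from P1 to P28 and 7 to 8 by the F test. Over the same 4 comparisons, the other imprinted genes gave 2 to 6, 6 to 13, 6 to 12 and 15 to 19, the IGF signalling genes 1 to 6, 0 to 4, 1 to 4 and 8 to 14, the fetal growth and imprint maintenance genes 0 to 2, 4 to 8, 1 to 2 and 5 to 8, and all genes 645 to 1534, 2155 to 3933, 1233 to 2807 and 3851 to 5739.

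The labels number the libraries 1 to 3 at each age. Of 18 pairs with the same number, 1 had a correlation of deviations over 0.1 (range -0.029 to 0.139), so the numbers were not taken as pairing. With the replicate number as a block, the 9 genes gave 5, 4, 4 and 8 calls, with Mest called from P7 to P14 (adjusted p = 0.0269) and from P14 to P28 (0.0495) and Cdkn1c no longer called in P14 against P1 (0.0517). Of the other genes named, Kcnq1ot1 from P14 to P28 (0.0666), Trim28 from P7 to P14 (0.0507) and Ube3a from P1 to P7 (0.0548) were no longer called, and the block changed no other call. DESeq2 and the fits of only the ages compared were not run for the F test.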

Other observations

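Igf2os, on the strand opposite Igf2, had 30.1, 55.0 and 11.4 normalized counts at P1, 23.1, 18.3 and 34.1 at P7, 0, 30.7 and 0 at P14, and 14.6, 16.5 and 0 at P28. Peg3os, beside Peg3, had at most 2.86 in any library and fell under the filter on low values.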
